A study of Homo sapiens with 8 samples.

Results

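The RAB GTPases and the proteins that make lysosomes work were followed in 2 prostate cancer cell lines after activation of Notch1. Members were taken by gene symbol, namely RAB followed by a number, the cathepsins (CTS followed by a letter), the LAMP genes and the subunits of the vacuolar proton pump (symbols starting with ATP6V). Only probe sets annotated with exactly 1 gene symbol were eligible, and a gene with several of them was represented by the brightest on average. This gave 65 genes of 8226 on the array, made up of 31 RAB genes, 15 cathepsins, 3 LAMP genes and 16 proton pump subunits. RAB7A, the RAB of late endosomes, was not analysed here.

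Expression was measured with the Affymetrix Human Genome U95Av2, a short-oligonucleotide array, and values were deposited on a log2 scale, so that a difference of 1 is a change of 2-fold. PC3 is an androgen-independent line from a bone metastasis that lacks detectable p53, and LNCaP is an androgen-responsive line from a lymph node metastasis. In each line cells overexpressing Notch1 were compared with control cells expressing GFP, giving 4 groups of 2 arrays (8 arrays), and the series describes the Notch activation as acute. The sources used here do not say which vector carried Notch1 into the cells on the arrays, nor for how long it was expressed. The methods describe 2 chips for each sample, so that p-values measure the spread between arrays, which may be technical. As a check of the labels, all 4 measured markers of LNCaP (KLK3, KLK2, TMPRSS2 and HOXB13) were higher in LNCaP GFP than in PC3 GFP, and 7 of 8 measured markers of PC3 were lower. Arrays of the same group correlated at 0.995 to 0.998 over probe sets. The median log2 value of an array was 5.95 to 6.01 in PC3 and 6.28 to 6.36 in LNCaP. All fold changes below come from limma across all 12558 non-control probe sets, with a call at an adjusted p under 0.05, and errors are standard errors.

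RAB proteins are small GTPases that switch between a GDP-bound form held in the cytosol and a GTP-bound form on a membrane, where each recruits the tethers and motors of its own transport step. RAB5 proteins act on early endosomes, RAB4 and RAB11 in recycling to the cell surface, RAB1 and RAB2 between the endoplasmic reticulum and the Golgi, and RAB3 and RAB27 in regulated secretion. At the end of the endocytic route, the vacuolar proton pump acidifies the lumen through a cytosolic V1 sector that hydrolyses ATP and a membrane V0 sector that carries protons, the cathepsins degrade protein in that acid, and the LAMP glycoproteins line the membrane. Notch receptors are themselves carried through endosomes, and their cleaved intracellular domain acts in the nucleus with the DNA-binding protein RBPJ.

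RAB5A, the early endosome GTPase, and LAMP2, a major lysosome membrane glycoprotein, rose upon Notch activation in PC3 and fell in LNCaP. They were 2 of 65 members called in both lines with opposite signs (3.08%), where 0.621% of all probe sets were. CTSH, an aminopeptidase of lysosomes, fell in both lines and was the 1 member called with the same sign in both (1.54%, against 1.37% of all probe sets). In PC3, 5 members were called higher (7.69%) and 1 lower (1.54%), where 4.19% of all probe sets were called higher and 2.01% lower. In LNCaP, 6 members were called higher (9.23%) and 9 lower (13.8%), against 8.01% and 9.32% of all probe sets. Members are represented by their brightest probe set. Counted in that way over all 8226 genes, the shares were 4.36% higher and 2.21% lower in PC3, and 8.47% and 10.2% in LNCaP. The median change of the members was -0.01 in PC3 and -0.09 in LNCaP, and that of all probe sets was -0.08 and 0.04. Most members, 59 in PC3 and 50 in LNCaP, did not pass the test. The split of calls moved with the scaling of the arrays, being 5 higher and 0 lower in PC3 and 4 higher and 11 lower in LNCaP with each array centred on its median, and 2 higher and 1 lower in PC3 after quantile normalization. RNA was taken from whole cultures, so a change per cell and a change in the share of cells that carry it cannot be told apart.

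**Figure D1:**
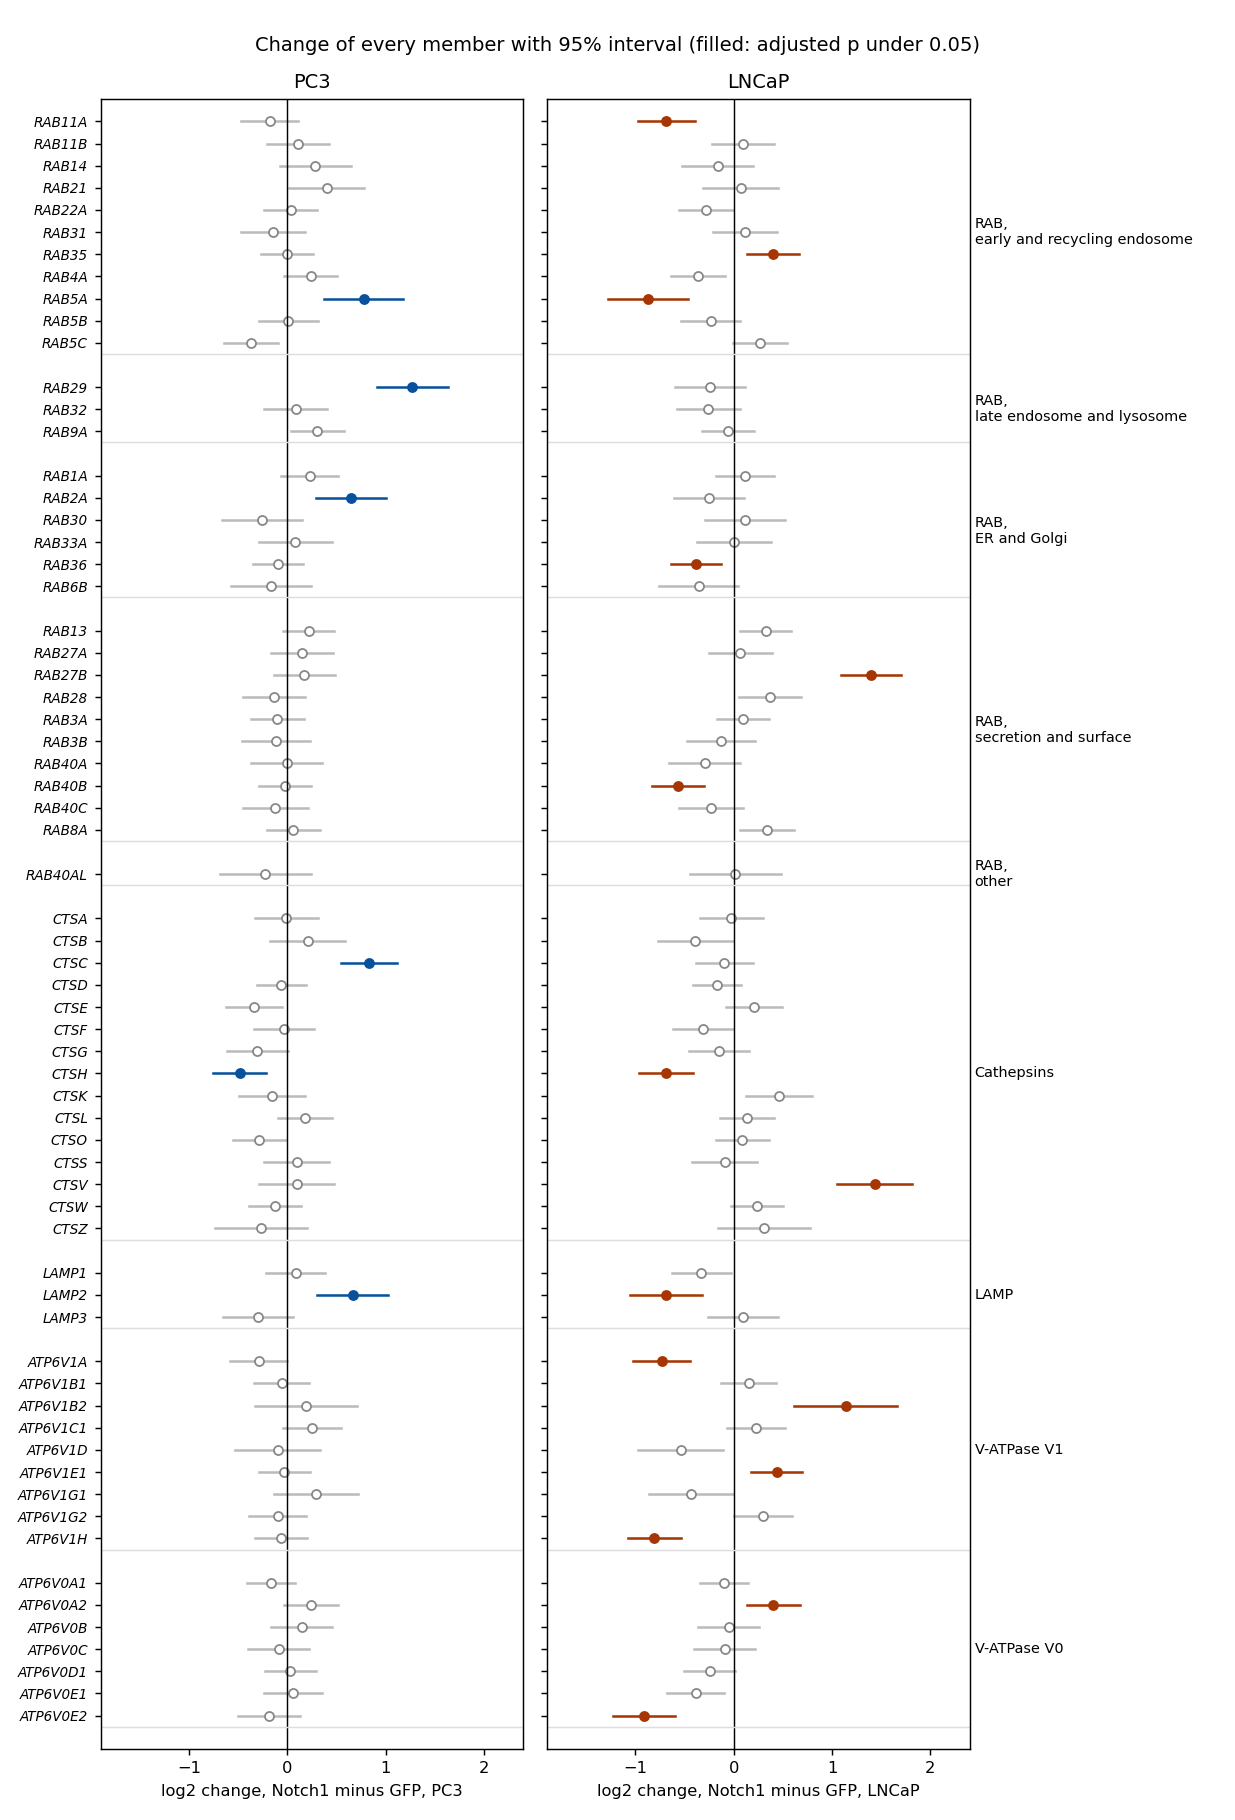
Log2 change from GFP to Notch1 (horizontal axes) of each of the 65 members in PC3 (left) and LNCaP (right), grouped by role, with bars for 95% intervals and filled points for an adjusted p under 0.05. Filled points number 6 in PC3 and 15 in LNCaP, and RAB5A and LAMP2 lie to the right of zero in PC3 and to the left in LNCaP.

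In PC3 the RAB5A values were 8.43 and 9.09 in the GFP arrays and 9.50 and 9.58 in the Notch1 arrays. In LNCaP they were 8.69 and 8.79 with GFP and 7.89 and 7.85 with Notch1. The GFP and Notch1 arrays did not overlap in either line. Groups apart in both lines, in opposite directions, were seen for 7 of the 65 members (10.8%). Among them were CTSE and CTSW, which were called in neither line. The share over all probe sets was not counted. RAB5A rose by 0.78 ± 0.18 in PC3 (1.72-fold, adjusted p = 0.0333) and fell by 0.87 ± 0.18 in LNCaP (1.83-fold lower, adjusted p = 0.00747). The difference between the 2 effects, LNCaP minus PC3, was -1.65 (95% interval -2.22 to -1.08, adjusted p = 0.00223). A second probe set of RAB5A changed by 0.85 in PC3 (adjusted p = 0.0615) and by -0.64 in LNCaP (adjusted p = 0.0958), and its difference between the lines was called (-1.49, adjusted p = 0.015). The size of the rise in PC3 rested on the first GFP array, without which it was 0.45 (adjusted p = 0.143). Its call was also lost without Notch1 replicate 1 (0.82, adjusted p = 0.153) or 2 (0.74, adjusted p = 0.172) of PC3 or either LNCaP Notch1 array (0.78, adjusted p = 0.0678), and that in LNCaP without LNCaP Notch1 replicate 1 (-0.89, adjusted p = 0.0521) or 2 (-0.86, adjusted p = 0.0595), whereas the difference between lines stayed called whichever array was left out. The PC3 call of RAB5A was lost as well after quantile normalization (0.67, adjusted p = 0.0586) and with the PC3 arrays alone (adjusted p = 0.0798).

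The values of LAMP2 in PC3 were 5.51 and 5.92 with GFP and 6.29 and 6.47 with Notch1. In LNCaP they were 7.78 and 8.09 with GFP and 7.18 and 7.32 with Notch1. Again the groups were apart in each line. LNCaP was the higher line with GFP, and with Notch1 the 2 lines lay closer to each other. LAMP2 rose by 0.66 ± 0.16 in PC3 (1.58-fold, adjusted p = 0.0411) and fell by 0.69 ± 0.16 in LNCaP (1.61-fold lower, adjusted p = 0.015), a difference between effects of -1.35 (95% interval -1.87 to -0.84, adjusted p = 0.00369). Its second probe set changed by 0.51 in PC3 (adjusted p = 0.107) and by -0.96 in LNCaP (adjusted p = 0.00295), with a called difference of -1.46 (adjusted p = 0.00296). Without the first GFP array the change of LAMP2 in PC3 was 0.46 (adjusted p = 0.23), and the call was lost too without PC3 Notch1 replicate 1 (0.75, adjusted p = 0.134), PC3 Notch1 replicate 2 (0.58, adjusted p = 0.212) or either LNCaP Notch1 array (adjusted p = 0.0725), after quantile normalization (0.67, adjusted p = 0.0522), with its probe sets averaged (0.59, adjusted p = 0.0586) and with the PC3 arrays alone (adjusted p = 0.0717). In LNCaP its call was lost without GFP replicate 2 (-0.53, adjusted p = 0.117), Notch1 replicate 1 (-0.62, adjusted p = 0.112) or Notch1 replicate 2 (-0.76, adjusted p = 0.0567). The other LAMP genes did not pass the test in either line. LAMP1, the other abundant lysosome membrane glycoprotein, changed by 0.09 in PC3 and -0.33 in LNCaP (adjusted p = 0.713 and 0.132). The only probe set of LAMP1 carries the suffix f and is not of the plain type meant to be unique to a gene. LAMP3, which lay below log2 5 on every array, changed by -0.30 and 0.10.

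**Figure D2:**
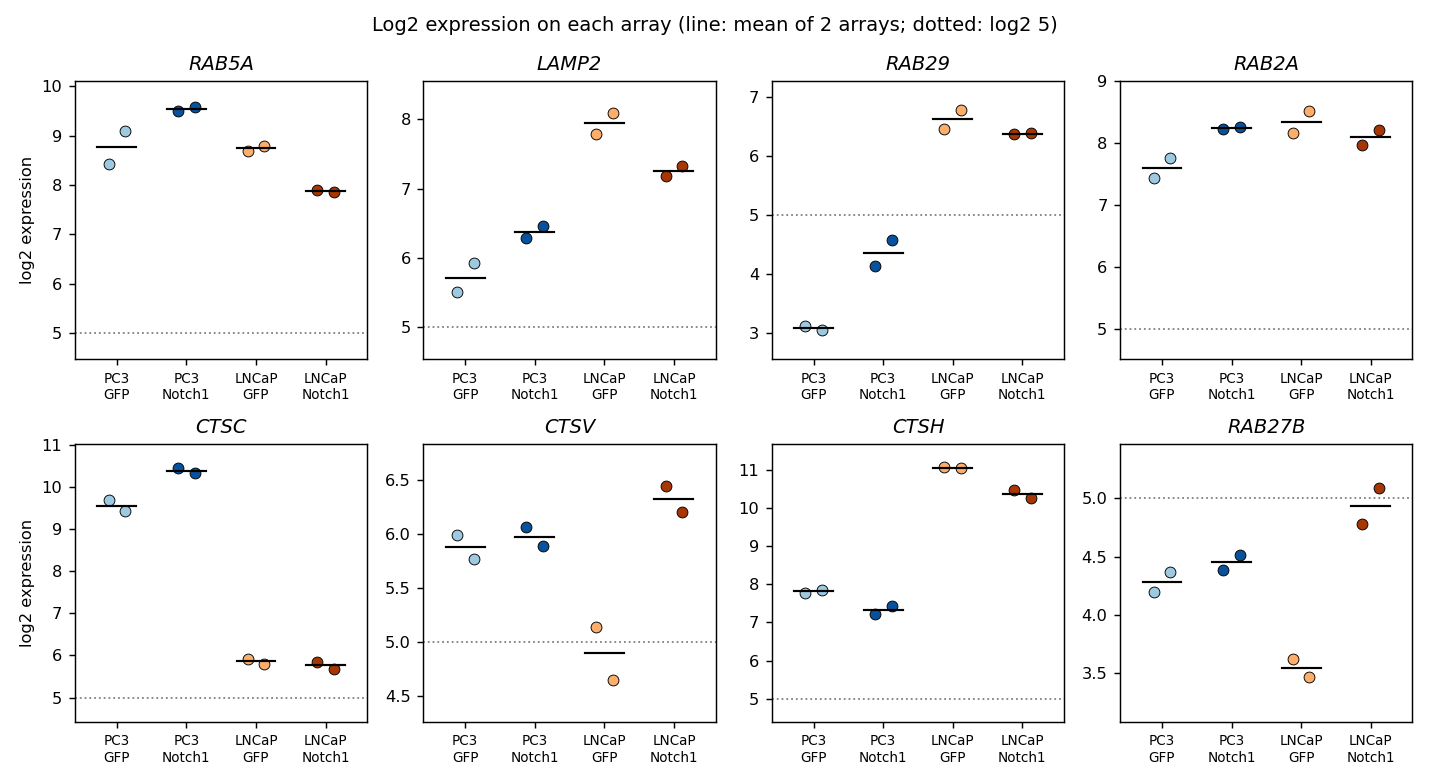
Log2 expression (vertical axes) of 8 members in each of the 2 arrays (points) of the 4 groups, with a line at the group mean and a dotted line at log2 5. RAB5A and LAMP2 go up in PC3 and down in LNCaP, CTSV goes up in LNCaP, CTSH goes down in both lines, and RAB29 in PC3 and most RAB27B points lie under the dotted line.

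The difference between lines was itself called for 11 members. For 3 the LNCaP effect lay above the PC3 effect (4.62%, against 6.49% of all probe sets and 6.86% of genes by their brightest probe set). For 8 it lay below (12.3%, against 7.67% and 8.34%). For 7 of these 11 the changes had opposite signs in the 2 lines (10.8%, against 10.4% of all probe sets), and besides RAB5A and LAMP2 these were RAB29, RAB2A, CTSC, RAB4A and RAB5C. Opposite signs of any size were seen in 34 of 65 members (52.3%) and in 55.3% of all probe sets. The remaining 4, CTSV, RAB27B, ATP6V1H and ATP6V0E2, were called in LNCaP and changed by -0.19 to 0.17 in PC3.

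**Figure D3:**
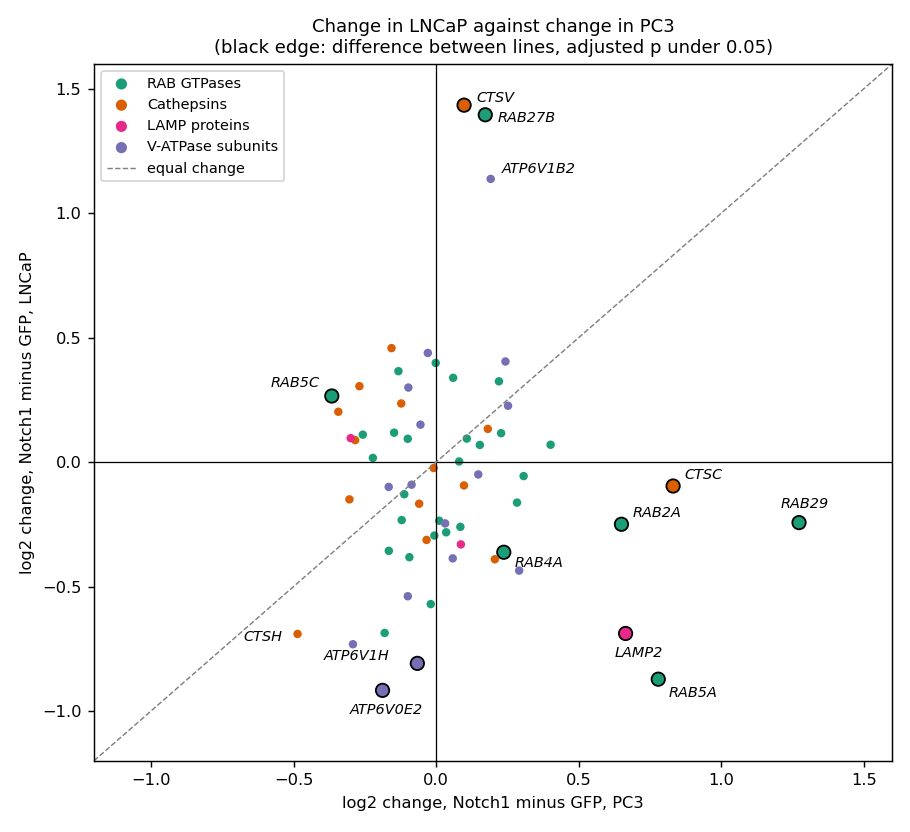
Log2 change from GFP to Notch1 in LNCaP (vertical axis) against that in PC3 (horizontal axis) for the 65 members, coloured by family. The 11 larger points with black edges have a called difference between lines, and RAB5A and LAMP2 lie at the lower right, at 0.78 and -0.87 and at 0.66 and -0.69.

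RAB29, which acts at the Golgi and on stressed lysosomes, gave the largest change of any member in PC3. Its PC3 values were 3.12 and 3.05 with GFP and 4.13 and 4.58 with Notch1, and its LNCaP values were 6.47 and 6.79 with GFP and 6.38 and 6.40 with Notch1. The PC3 arrays were apart, but all 4 lay below log2 5, a level under which 36.6 to 37.6% of the probe sets on a PC3 array lay. The rise in PC3 was 1.27 ± 0.16 (2.42-fold, adjusted p = 0.00104), the change in LNCaP was -0.24 (adjusted p = 0.375), and the difference was -1.52 (95% interval -2.02 to -1.01, adjusted p = 0.00189). With values under log2 5 raised to log2 5, the change of RAB29 in PC3 was 0.00 and the difference between lines -0.24 (adjusted p = 0.436).

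For RAB2A, which works between the endoplasmic reticulum and the Golgi, the PC3 values were 7.43 and 7.77 with GFP and 8.24 and 8.26 with Notch1, and the LNCaP values were 8.16 and 8.53 with GFP and 7.98 and 8.21 with Notch1. The groups were apart in PC3 and overlapped in LNCaP. RAB2A rose by 0.65 ± 0.16 in PC3 (adjusted p = 0.0418), changed by -0.25 in LNCaP (adjusted p = 0.358), and differed between lines by -0.90 (adjusted p = 0.0262). Its probe set has the suffix that marks probes shared between transcripts, and its second probe set, at a mean log2 value of 1.36, changed by 0.01 and -0.22. Without the first PC3 GFP array the rise of RAB2A was 0.48 (adjusted p = 0.226), and the call was lost too without PC3 Notch1 replicate 1 (0.66, adjusted p = 0.187) or 2 (0.64, adjusted p = 0.18) or either LNCaP Notch1 array (adjusted p = 0.0666), after quantile normalization (0.58, adjusted p = 0.0818), with its probe sets averaged (0.33, adjusted p = 0.115) and with the PC3 arrays alone (adjusted p = 0.0533). The call of its difference was lost without any of LNCaP GFP replicate 2 (-0.72, adjusted p = 0.0919), LNCaP Notch1 replicate 1 (-0.78, adjusted p = 0.0977), the first PC3 GFP array (-0.73, adjusted p = 0.0681), and PC3 Notch1 replicates 1 (-0.91, adjusted p = 0.0822) and 2 (-0.89, adjusted p = 0.0861).

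RAB4A and RAB5C were called in neither line, and the difference between lines was called for both, in opposite directions. RAB4A, which returns receptors rapidly to the surface, stood at 6.75 and 6.68 with GFP against 6.88 and 7.03 with Notch1 in PC3, and at 8.12 and 8.29 against 7.90 and 7.78 in LNCaP. Its changes were 0.24 (adjusted p = 0.251) and -0.36 (adjusted p = 0.0698), and their difference -0.60 (95% interval -0.98 to -0.22, adjusted p = 0.0444). This call was lost without any 1 of the 8 arrays, the difference then lying between -0.68 and -0.52, and the other 3 probe sets of RAB4A gave differences of -0.51, -0.33 and 0.01 that were not called, the mean of the 4 probe sets giving -0.36 (adjusted p = 0.128). RAB5C, a close relative of RAB5A, ran the other way from RAB5A. It stood at 6.10 and 5.98 with GFP against 5.72 and 5.63 with Notch1 in PC3, and at 9.28 and 9.21 against 9.62 and 9.39 in LNCaP. The changes of RAB5C were -0.37 (adjusted p = 0.109) and 0.27 (adjusted p = 0.189), with a difference of 0.63 (95% interval 0.24 to 1.02, adjusted p = 0.0388). It was no longer called after removal of replicate 1 of LNCaP GFP (0.67, adjusted p = 0.068), its replicate 2 (0.59, adjusted p = 0.124), the first LNCaP Notch1 array (0.52, adjusted p = 0.115), the first PC3 GFP array (0.57, adjusted p = 0.0928), or the first (0.67, adjusted p = 0.0904) or second (0.59, adjusted p = 0.123) PC3 Notch1 array, nor with median centring (0.53, adjusted p = 0.0634). RAB5B, the third RAB5 gene, changed by 0.01 in PC3 and -0.24 in LNCaP (adjusted p = 0.967 and 0.291).

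Of the 11 RAB genes of early and recycling endosomes, 1 rose in PC3 (RAB5A) and none fell, and in LNCaP RAB35 rose while RAB5A and RAB11A fell. Beside these counts and those of the other RAB groups below, 4.19% of all probe sets were called higher and 2.01% lower in PC3. In LNCaP 8.01% of all probe sets were called higher and 9.32% lower. RAB11A, the GTPase of the slow recycling endosome, stood at 5.10 and 5.38 with GFP against 4.97 and 5.15 with Notch1 in PC3, and at 7.77 and 7.87 against 7.11 and 7.16 in LNCaP. RAB11A changed by -0.69 ± 0.13 in LNCaP (1.61-fold lower, adjusted p = 0.00459) and was called whichever array was left out, the PC3 arrays overlapped (-0.18, adjusted p = 0.403), and the difference of the 2 effects did not pass the test (-0.51, 95% interval -0.92 to -0.09, adjusted p = 0.0939). Its paralogue RAB11B changed by 0.11 and 0.09. RAB35, which recycles cargo from early endosomes to the surface, rose in LNCaP from 8.76 and 8.61 to 9.15 and 9.02 (0.40 ± 0.12, adjusted p = 0.0436), and did not pass the test in PC3 (8.55 and 8.43 against 8.52 and 8.47, adjusted p = 0.995). Removing LNCaP GFP replicate 1 ended the call of RAB35 (0.47, adjusted p = 0.0802), as did removing LNCaP GFP replicate 2 (0.32, adjusted p = 0.275), replicate 1 of LNCaP Notch1 (0.33, adjusted p = 0.211) or 2 (0.47, adjusted p = 0.083), or either PC3 Notch1 array (adjusted p = 0.0728), and so did median centring (0.34, adjusted p = 0.0759) and a fit to the LNCaP arrays alone (adjusted p = 0.0623).

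Among the 10 RAB genes of secretion and the cell surface, none was called in PC3, and in LNCaP RAB27B rose and RAB40B fell. RAB27B, which docks secretory vesicles at the plasma membrane, stood at 3.62 and 3.46 with GFP and 4.78 and 5.09 with Notch1 in LNCaP, while its PC3 values were 4.19 and 4.36 against 4.39 and 4.51. The LNCaP arrays were far apart, with 1 of them above log2 5. RAB27B rose by 1.40 ± 0.14 in LNCaP (2.63-fold, adjusted p = 6.43e-05), changed by 0.17 in PC3 (adjusted p = 0.449), and differed between lines by 1.22 (95% interval 0.79 to 1.66, adjusted p = 0.00268). With values under log2 5 raised to log2 5 the LNCaP change of RAB27B was 0.04 (adjusted p = 0.52), so its size rests on values at the dim end of the array. Its paralogue RAB27A changed by 0.15 in PC3 and 0.07 in LNCaP, and the secretory RAB3B by -0.11 and -0.13, none of them called. The PC3 values of RAB3B also lay under log2 5, at 3.77 to 4.16. RAB40B, which pairs a RAB fold with a ubiquitin ligase motif, fell in LNCaP from 6.53 and 6.56 to 6.06 and 5.89 (-0.57 ± 0.12, adjusted p = 0.00749). It changed by -0.02 in PC3, where all its values lay under log2 5, at 3.72 to 3.88. The difference between lines was -0.55 for RAB40B (adjusted p = 0.054). Its LNCaP call was lost without GFP replicate 2 (-0.55, adjusted p = 0.0528) or Notch1 replicate 2 (-0.49, adjusted p = 0.0652).

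Of the 6 RAB genes of the endoplasmic reticulum and Golgi, RAB2A was the 1 called in PC3 and RAB36 the 1 called in LNCaP. RAB36, a Golgi RAB, stood at 5.47 and 5.50 with GFP and 5.11 and 5.10 with Notch1 in LNCaP, groups that were apart by a small margin (-0.38 ± 0.11, adjusted p = 0.0436). Leaving out LNCaP GFP replicate 1 or 2 (-0.40 or -0.37, adjusted p = 0.143 or 0.203), LNCaP Notch1 replicate 1 or 2 (-0.39 or -0.38, adjusted p = 0.14 or 0.15), or either PC3 Notch1 array (adjusted p = 0.0702) ended the RAB36 call, as did a trended prior (adjusted p = 0.0624) and a fit to the LNCaP arrays alone (adjusted p = 0.0554). Of the late endosome group of 3, RAB9A, which returns mannose 6-phosphate receptors to the Golgi, changed by 0.31 in PC3 (adjusted p = 0.153) and RAB32 by 0.08, so that RAB29 was the 1 called. RAB40AL was placed in no role.

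The cathepsins divided into a few that changed and 13 of 15 in each line that did not pass the test. Each line had 1 cathepsin called higher and 1 lower. Of all probe sets, 4.19% were called higher and 2.01% lower in PC3, and 8.01% and 9.32% in LNCaP. CTSC, the dipeptidyl peptidase that activates granule serine proteases, rose in PC3 from 9.69 and 9.43 with GFP to 10.46 and 10.33 with Notch1, and stood at 5.91 and 5.81 against 5.84 and 5.69 in LNCaP. The PC3 groups were apart and the LNCaP groups overlapped. The rise was 0.83 ± 0.13 (1.78-fold, adjusted p = 0.0042), the LNCaP change -0.10 (adjusted p = 0.704), and the difference between lines -0.93 (95% interval -1.34 to -0.52, adjusted p = 0.0081). Without PC3 Notch1 replicate 1 the rise of CTSC missed the threshold (0.77, adjusted p = 0.0602), whereas the difference between lines was called under every alternative.

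CTSV, a cathepsin close to cathepsin L, moved in LNCaP. It stood there at 5.14 and 4.65 with GFP and 6.45 and 6.21 with Notch1, and in PC3 at 5.99 and 5.77 against 6.06 and 5.89. The groups were apart in LNCaP and overlapped in PC3. CTSV rose by 1.43 ± 0.17 in LNCaP (2.70-fold, adjusted p = 0.00025), changed by 0.10 in PC3 (adjusted p = 0.749), and differed between lines by 1.34 (95% interval 0.80 to 1.88, adjusted p = 0.00525), and both calls held under every alternative. Its relative CTSL, a major lysosomal cysteine protease, changed by 0.18 and 0.13 (adjusted p = 0.373 and 0.55).

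For CTSH the values fell in PC3 from 7.78 and 7.85 to 7.23 and 7.42, and in LNCaP from 11.08 and 11.04 to 10.46 and 10.27. The fall was -0.49 ± 0.12 in PC3 (1.40-fold lower, adjusted p = 0.0457) and -0.69 ± 0.12 in LNCaP (1.61-fold lower, adjusted p = 0.00308), and the difference of -0.20 did not pass the test (95% interval -0.59 to 0.18, adjusted p = 0.437). The LNCaP call of CTSH held under every alternative, while the PC3 call was lost without any 1 of the 8 arrays, with values of -0.58 to -0.39 and adjusted p of 0.0612 to 0.283, and with median centring (-0.45, adjusted p = 0.053) or the PC3 arrays alone (adjusted p = 0.0954). The lysosomal proteases CTSB and CTSD did not pass the test, with changes of 0.21 and -0.06 in PC3 and -0.39 and -0.17 in LNCaP. CTSE, CTSK and CTSS had means below log2 5.

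No subunit of the proton pump was called in PC3, where the 16 changes ran from -0.29 to 0.29. Over all probe sets, the shares called higher and lower were 4.19% and 2.01% in PC3 and 8.01% and 9.32% in LNCaP. In LNCaP 3 subunits rose and 3 fell. Of the 9 V1 subunits, ATP6V1B2 and ATP6V1E1 rose and ATP6V1A and ATP6V1H fell, and of the 7 V0 subunits, ATP6V0A2 rose and ATP6V0E2 fell.

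The catalytic subunit A, ATP6V1A, stood at 9.63 and 9.81 with GFP and 9.12 and 8.86 with Notch1 in LNCaP, while ATP6V1B2, the B subunit that alternates with it in the ATP-hydrolysing ring, stood at 7.66 and 8.14 against 8.86 and 9.21. The groups were apart for both subunits, in opposite directions. ATP6V1A fell by 0.73 ± 0.13 (1.66-fold lower, adjusted p = 0.00308) and ATP6V1B2 rose by 1.14 ± 0.23 (2.20-fold, adjusted p = 0.00697). The ATP6V1A call was kept under every alternative. That of ATP6V1B2 was lost without LNCaP Notch1 replicate 2 (0.96), and with values under log2 5 raised to log2 5 (1.14, adjusted p = 0.113). In PC3 ATP6V1B2 stood at 6.87 and 7.45 against 7.12 and 7.58, a change of 0.19 (adjusted p = 0.631). The probe sets of ATP6V1A disagreed in PC3, where the brighter one changed by -0.29 (8.61 and 8.59 against 8.23 and 8.38, adjusted p = 0.198) and the dimmer one rose by 1.01 (5.44 and 5.78 against 6.40 and 6.84, adjusted p = 0.00918). In LNCaP the dimmer one changed by -0.55 (adjusted p = 0.0606), so on that probe set the lines differed by -1.56 (adjusted p = 0.00286), and on the brighter one by -0.44 (adjusted p = 0.135).

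ATP6V1H, the regulatory H subunit of V1, fell in LNCaP from 7.92 and 8.11 to 7.20 and 7.20 (-0.81 ± 0.12, 1.75-fold lower, adjusted p = 0.000986) and stood in PC3 at 6.54 and 6.38 against 6.38 and 6.40 (-0.07, adjusted p = 0.757). ATP6V0E2, a small V0 subunit, fell in LNCaP from 10.45 and 10.34 to 9.60 and 9.36 (-0.92 ± 0.14, 1.89-fold lower, adjusted p = 0.00124) and stood in PC3 at 8.18 and 8.45 against 8.21 and 8.04 (-0.19, adjusted p = 0.418). Both falls were called under every alternative, and for both the difference between lines was called, at -0.74 (95% interval -1.12 to -0.37, adjusted p = 0.0168) and -0.73 (95% interval -1.17 to -0.28, adjusted p = 0.0373). The difference of ATP6V1H lost its call without LNCaP GFP replicate 2 (-0.65, adjusted p = 0.0763), LNCaP Notch1 replicate 1 (-0.74, adjusted p = 0.0539) or 2 (-0.74, adjusted p = 0.0536), or PC3 Notch1 replicate 1 (-0.75, adjusted p = 0.0588) or 2 (-0.73, adjusted p = 0.0655), and with its probe sets averaged (-0.63, adjusted p = 0.0973). That of ATP6V0E2 lost it after removal of the first (-0.67, adjusted p = 0.0886) or second (-0.78, adjusted p = 0.0658) LNCaP GFP array, the second LNCaP Notch1 array (-0.61, adjusted p = 0.127), the first PC3 GFP array (-0.59, adjusted p = 0.0988), or the first (-0.64, adjusted p = 0.135) or second (-0.81, adjusted p = 0.0694) PC3 Notch1 array.

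The other 2 called subunits moved less. ATP6V1E1, of the stalk that joins the sectors, rose in LNCaP from 10.03 and 10.03 to 10.52 and 10.41 (0.44 ± 0.12, adjusted p = 0.0268), and ATP6V0A2, an isoform of the large V0 subunit found at the Golgi and endosomes, from 6.95 and 7.05 to 7.32 and 7.49 (0.40 ± 0.12, adjusted p = 0.0472). ATP6V1E1 was no longer called after removal of the first (0.44, adjusted p = 0.112) or second (0.44, adjusted p = 0.126) LNCaP GFP array, or LNCaP Notch1 replicate 1 (0.38, adjusted p = 0.148) or 2 (0.50, adjusted p = 0.0649). ATP6V0A2 was no longer called after removal of the first (0.35, adjusted p = 0.218) or second (0.45, adjusted p = 0.12) LNCaP GFP array, LNCaP Notch1 replicate 1 (0.49, adjusted p = 0.0729) or 2 (0.32, adjusted p = 0.244), or either PC3 Notch1 array (0.40, adjusted p = 0.0755), nor with median centring (0.34, adjusted p = 0.0995), quantile normalization (0.39, adjusted p = 0.0533) or the LNCaP arrays alone (0.40, adjusted p = 0.0584). Neither subunit passed the test of the difference between lines (0.47, adjusted p = 0.0866, and 0.16, adjusted p = 0.542).

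**Figure D4:**
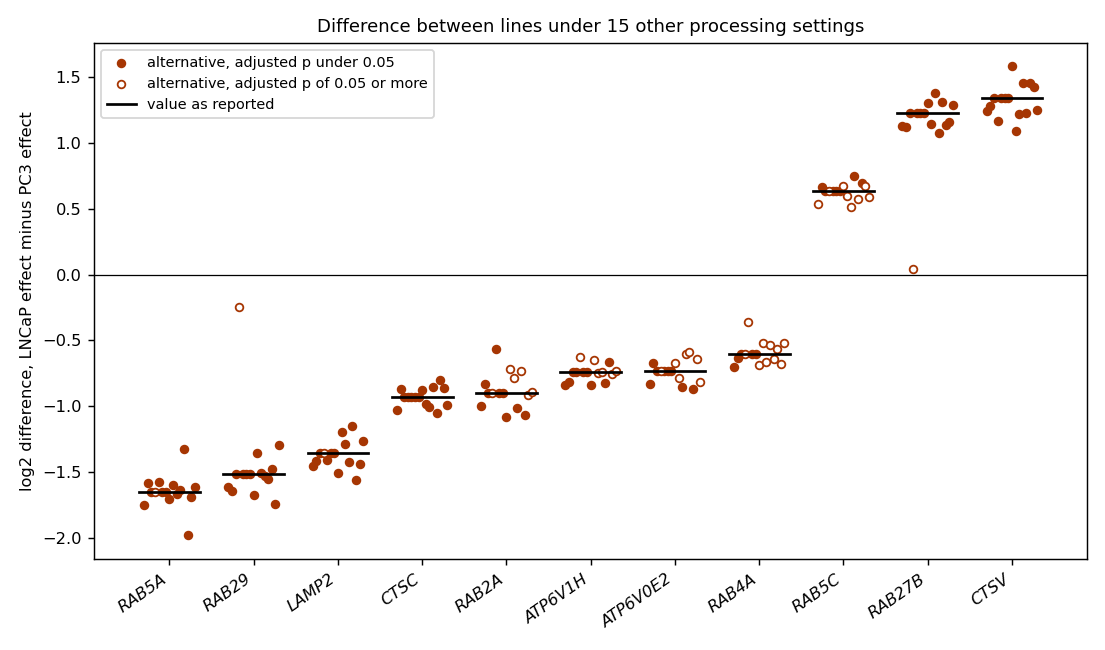
Difference between the LNCaP and the PC3 effect (log2, vertical axis) of the 11 members for which it was called, with a black line at the reported value and 1 point for each of 15 other processing settings, filled where the adjusted p was under 0.05. CTSC and CTSV have only filled points, and for RAB29 and RAB27B the point nearest zero comes from raising values under log2 5 to log2 5.

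Promoters of members were searched for the letters TGGGAA, around which RBPJ, the nuclear partner of Notch, binds DNA. Windows of 300 bases, from 250 before to 50 after the start, came from a table of RefSeq promoters (GRCh38.p14) that covered 49 of the 65 members, LAMP2 not being among them. The letters TGGGAA, searched on both strands, were found in 7 of 49 member promoters (14.3%) and in 24.3% of all 27305 promoters. Of the members whose difference between lines was called, RAB5A, RAB29 and RAB27B held a match, and their promoters are shown for that reason. The 250 bases before the start of these 3 genes are given 5′ to 3′ on the strand of the gene, with capitals marking TGGGAA, its reverse complement TTCCCA, or the longer motif TCACGTGA.

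RAB5A, chr3:19946847-19947096, plus strand: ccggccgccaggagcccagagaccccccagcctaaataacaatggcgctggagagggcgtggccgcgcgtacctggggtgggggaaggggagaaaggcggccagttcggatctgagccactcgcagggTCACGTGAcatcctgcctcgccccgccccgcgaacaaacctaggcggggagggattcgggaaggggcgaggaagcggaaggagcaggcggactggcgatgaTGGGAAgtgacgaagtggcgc

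RAB29, chr1:205775483-205775732, minus strand: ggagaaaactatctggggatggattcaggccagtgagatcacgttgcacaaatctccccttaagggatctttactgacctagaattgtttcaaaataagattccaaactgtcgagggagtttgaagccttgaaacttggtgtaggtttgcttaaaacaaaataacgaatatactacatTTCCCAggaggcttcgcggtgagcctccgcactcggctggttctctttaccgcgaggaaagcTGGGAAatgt

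RAB27B, chr18:54717607-54717856, plus strand: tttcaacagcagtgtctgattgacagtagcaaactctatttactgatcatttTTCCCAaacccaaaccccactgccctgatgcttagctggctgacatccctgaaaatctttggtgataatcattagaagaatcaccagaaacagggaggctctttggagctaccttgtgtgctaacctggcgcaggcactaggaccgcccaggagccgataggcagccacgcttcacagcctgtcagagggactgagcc

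In RAB5A the TGGGAA match began 21 bases before the start, and in RAB29 1 match on the gene's strand began 10 bases before it and another on the opposite strand 72 bases before it. In RAB27B the match lay on the opposite strand, 198 bases before the start. No match to the letters searched was found for CTSC or CTSV, and whether both are among the members with a promoter is not reported here. A match is only a description of the letters in this window.

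The second search was for TCACGTGA, the core of the element bound by TFEB and its relatives at lysosomal genes, and for the shorter CACGTG that it contains. CACGTG was found in 13 of 49 member promoters (26.5%) against 7.43% of all promoters, and TCACGTGA in 6 (12.2%) against 1.04%. Over the 250 bases before the start, the members' promoters were also richer in G and C (median 65.6% against 58.0%) and in CpG (median 23 against 11). Both motifs contain a CpG. The 6 genes with TCACGTGA were RAB5A, RAB21, CTSA, LAMP1, ATP6V0D1 and ATP6V1G1, shown in the lines below with 12 bases on each side of the capitals. LAMP1 held a second match, beginning 2 bases before the start, which is not shown.

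RAB5A, chr3:19946963-19946994, plus strand: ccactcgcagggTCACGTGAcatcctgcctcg

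RAB21, chr12:71754830-71754861, plus strand: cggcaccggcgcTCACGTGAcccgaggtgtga

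CTSA, chr20:45891297-45891328, plus strand: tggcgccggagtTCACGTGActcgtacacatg

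LAMP1, chr13:113297198-113297229, plus strand: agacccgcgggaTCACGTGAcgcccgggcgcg

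ATP6V0D1, chr16:67481198-67481229, minus strand: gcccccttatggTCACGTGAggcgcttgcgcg

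ATP6V1G1, chr9:114587698-114587729, plus strand: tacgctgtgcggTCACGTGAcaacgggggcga

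Of these 6 genes RAB5A was the 1 called in either line. The others changed by 0.40 and 0.07 (RAB21, an endosomal RAB), -0.01 and -0.02 (CTSA, the protective protein of lysosomal galactosidase), 0.09 and -0.33 (LAMP1), 0.03 and -0.25 (ATP6V0D1) and 0.29 and -0.44 (ATP6V1G1) in PC3 and LNCaP in turn. The 4 MiT transcription factors measured (TFEB, TFE3, MITF and TFEC) were called in neither line, with changes between -0.29 and 0.13, and TFEB, MITF and TFEC had means below log2 5.

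The machinery around the RAB proteins was examined through 21 measured regulators and effectors. Over all probe sets, 4.19% were called higher and 2.01% lower in PC3, and 8.01% and 9.32% in LNCaP. Of the 21 genes, 4 rose and none fell in PC3, and 2 rose and 2 fell in LNCaP. The largest changes were in PC3, in MYO5A, the myosin motor recruited by RAB27A and RAB11 (1.30, adjusted p = 0.00838), RABGAP1, a GTPase-activating protein (1.05, adjusted p = 0.000723), and EEA1, the tether that RAB5 recruits to early endosomes (0.80, adjusted p = 0.0141). EEA1 had a mean log2 value of 2.43. The differences between lines were called for RABGAP1 and EEA1 (-1.06, adjusted p = 0.00345, and -1.09, adjusted p = 0.00887), and that of MYO5A was -1.05 (adjusted p = 0.0555).

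The counts below stand beside the same shares of all probe sets, 4.19% higher and 2.01% lower in PC3 and 8.01% and 9.32% in LNCaP. Among 27 other lysosomal enzymes, LGMN, an asparaginyl endopeptidase that processes cathepsins, rose in both lines (0.65 in PC3, adjusted p = 0.0108, and 0.74 in LNCaP, adjusted p = 0.00178) and was the only one of these called in PC3. In LNCaP 4 genes of this list fell, of which SMPD1, acid sphingomyelinase (-0.73, adjusted p = 0.0103), NEU1, a sialidase (-0.65, adjusted p = 0.00802), and SGSH, a sulfatase (-0.38, adjusted p = 0.0466), are lysosomal. The fourth, TPP2 (-0.57, adjusted p = 0.0426), is a cytosolic protease and had a mean log2 value of 2.65. Of 24 other lysosome membrane and sorting proteins, 1 rose and 1 fell in PC3, and none rose and 4 fell in LNCaP. AP1S1, a subunit of the adaptor that sorts cargo at the Golgi, fell in PC3 (-1.48, adjusted p = 0.000214), and in LNCaP the cholesterol transporter NPC1 (-1.19, adjusted p = 4.27e-05) and the iron transporter SLC11A2 (from 7.13 and 7.57 to 6.43 and 6.27, adjusted p = 0.00182) fell. Of 6 cathepsin inhibitors, CST7 rose in LNCaP (0.52, adjusted p = 0.0405) and none was called in PC3. Of the 16 leukocyte markers measured, none rose in either line and 1 fell in PC3, their summed linear level being 981 to 1027 in PC3 GFP, 828 to 896 in PC3 Notch1, 934 to 984 in LNCaP GFP and 987 to 1074 in LNCaP Notch1. Of 12 stromal markers measured, 1 rose in LNCaP and none was called in PC3, and their summed level was 1658 to 1708, 1590 to 1602, 1792 to 1887 and 2378 to 2436 in the same order. The markers of the lines moved too, 5 of 8 PC3 markers being called higher and none lower in PC3 (median change 0.80), and 3 of 4 LNCaP markers lower and none higher in LNCaP (median change -0.78). In the other line, 1 PC3 marker was called higher and none lower in LNCaP, and no LNCaP marker was called in PC3. The part of these markers in the members' changes was not tested.

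With GFP alone the lines differed in most members. In LNCaP GFP against PC3 GFP, 36 members were called higher and 10 lower (55.4% and 15.4%), where 40.3% of all probe sets were called higher and 18.5% lower. Over all genes by their brightest probe set the shares were 39.8% and 19.8%. The median of all probe sets was itself 0.22 higher in LNCaP on the deposited scale, and no source used here says that the lines were normalized together. With each array centred on its median, 29 members were called higher and 12 lower (44.6% and 18.5%), where 26.5% and 30.7% of all probe sets were. The share of calls that were higher went from 78.3% to 70.7% among the members and from 68.6% to 46.3% over all probe sets. The values below are from the centred arrays.

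**Figure D5:**
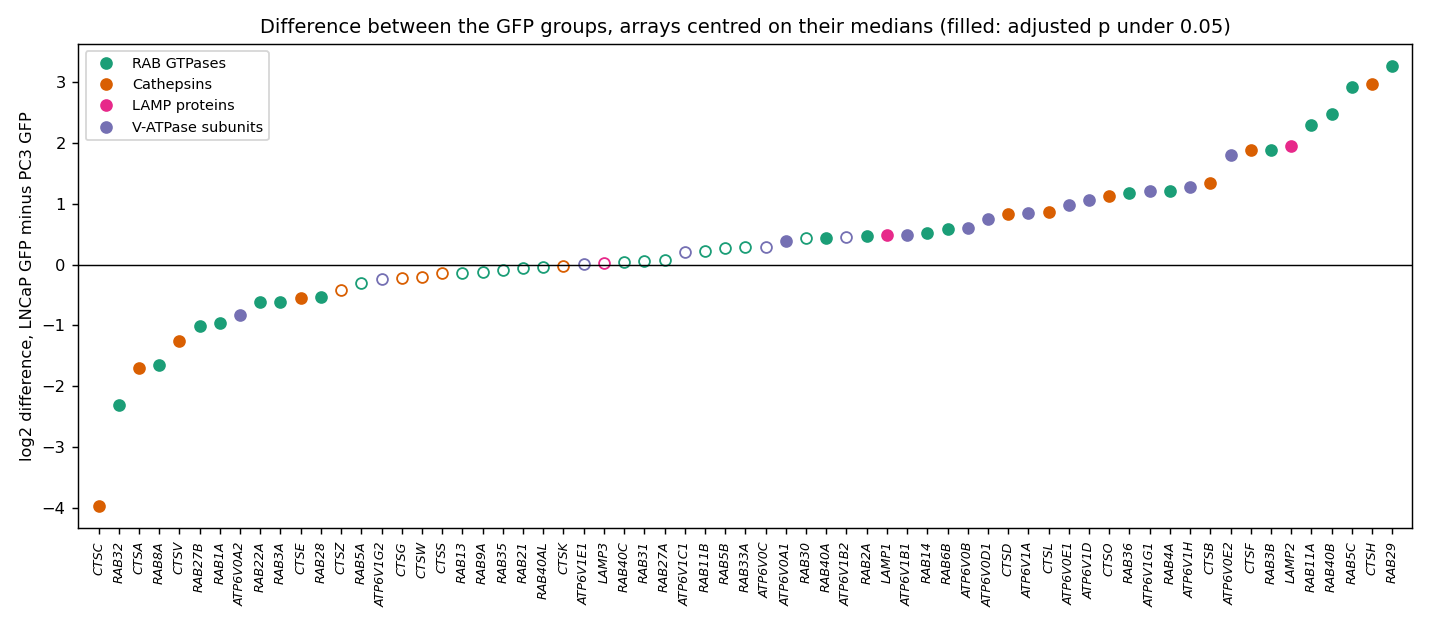
Log2 difference of LNCaP GFP minus PC3 GFP (vertical axis) for the 65 members in rising order, on arrays centred on their medians, coloured by family and filled where the adjusted p was under 0.05. The points run from -3.98 for CTSC to 3.27 for RAB29.

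Of the members highest in LNCaP, RAB29 stood 3.27 above PC3 (9.62-fold), CTSH 2.96 (7.80-fold), RAB5C 2.92 (7.57-fold), RAB40B 2.47 (5.54-fold) and RAB11A 2.30 (4.91-fold). Of those lowest, CTSC stood at -3.98 (15.8-fold lower than in PC3), RAB32, a RAB of lysosome-related organelles, at -2.31 (4.95-fold), CTSA at -1.71 (3.27-fold), RAB8A, which directs vesicles to the surface, at -1.65 (3.13-fold) and CTSV at -1.26 (2.40-fold). The PC3 GFP values of RAB29, RAB40B and RAB3B lay under log2 5, and with values raised to log2 5 on the deposited scale the differences were 1.63 for RAB29, 1.55 for RAB40B and 1.16 for RAB3B, so the sizes given for these genes rest on dim signals. For the 10 genes at the ends of the order the adjusted p lay between 1.19e-09 and 9.31e-05. RAB5A did not pass the test (-0.30, adjusted p = 0.195), whereas LAMP2 was 1.94 higher in LNCaP (3.85-fold, adjusted p = 2.69e-06). RAB27B was lower in LNCaP GFP (-1.02, adjusted p = 0.00012), but all its GFP values lay under log2 5 and the difference was 0.00 with the floor. The secretory RAB3B was higher in LNCaP (1.89, adjusted p = 1.32e-06). The groups also differed in the gap between 3′ and 5′ probe sets of GAPDH, a sign of RNA integrity, which was 0.56 ± 0.01 in LNCaP GFP and 0.38 ± 0.03 in LNCaP Notch1 against 0.02 ± 0.07 in PC3 GFP and -0.06 ± 0.03 in PC3 Notch1 (SD, n = 2). For ACTB the same gap was 0.63 ± 0.06 and 0.45 ± 0.10 in LNCaP against 0.38 ± 0.07 and 0.33 ± 0.08 in PC3. The part of these gaps in the results was not tested.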

How the data were processed

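The authors made 2 chips for each sample from total RNA, took the raw array files into R, normalized them with RMA and tested them with limma (versions not given in the sources used here), and deposited log2 expression values for 12625 probe sets on 8 arrays. RMA subtracts background, equalizes the distributions of the arrays normalized together and summarizes the probes of a set, which compresses changes near the dim end of the scale. The deposited log2 values were used as they stand. Array medians differ between the lines, and no source says whether all arrays were normalized in 1 run. After 67 control probe sets were left out, 12558 were fitted in limma 3.58.1 (R 4.3.3) with 1 mean for each of the 4 groups and no covariate, the groups sharing their variance (residual degrees of freedom 4, prior 6.37). Contrasts were Notch1 minus GFP in each line, the difference of these effects, and LNCaP GFP minus PC3 GFP, with Benjamini-Hochberg adjustment over all probe sets. The fit was tested on simulated data.

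Gene symbols came from the platform annotation, in which 10943 probe sets had 1 symbol, 545 several and 1070 none; all 65 members matched RefSeq by gene identifier. Members named in the text are, for each line, the 10 called members with the largest rise and fall, those called in both lines or in opposite directions, the 5 largest called differences between lines and between GFP groups in each direction, and 11 genes fixed by name, RAB7A among them; of each list of other genes, up to 3 with the largest called change are named. Relatives of these members and genes with a promoter motif are named besides, chosen after their values were seen. The members and lists were chosen with earlier results of these data known. Alternatives were median centring, quantile normalization, a filter at the 25th percentile of level, a floor at log2 5, averaging the probe sets of each gene, a replicate block, a fit to 1 line, a trended prior, and leaving out each array. The number of arrays limits the precision.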

Additional observations from a re-analysis of the deposited data

Results flagged for a closer look

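The effect of Notch activation differed between the lines for 11 members by the limma test of the difference itself (LNCaP effect minus PC3 effect, adjusted p under 0.05), with 2 arrays in each group. The LNCaP effect was below the PC3 effect for RAB5A (-1.65), RAB29 (-1.52), LAMP2 (-1.35), CTSC (-0.93), RAB2A (-0.90), ATP6V1H (-0.74), ATP6V0E2 (-0.73) and RAB4A (-0.60), and above it for RAB5C (0.63), RAB27B (1.22) and CTSV (1.34). RAB5A and LAMP2 are the pair called in each line by itself, and for both a second probe set gave a called difference of the same sign. RAB29 in PC3 and RAB27B in LNCaP lie mostly under log2 5.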

How the results depend on the processing

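No called change of a named member took the other sign under any alternative, although RAB29 in PC3 went to 0.00 with the floor below, and not all calls were kept. With values under log2 5 raised to log2 5, the count called was 1 higher and 0 lower in PC3, and 2 higher and 7 lower in LNCaP. For the difference between lines it was 1 higher and 4 lower, and in opposite directions 0. This floor makes many probe sets constant and brought the prior degrees of freedom to 0.386. Calls of RAB5A, LAMP2 and ATP6V1B2, among others, were thereby lost with their values unchanged. Median centring gave 0 lower in PC3. Quantile normalization gave 2 higher in PC3 and 0 in opposite directions. Averaging the probe sets of a gene gave 3 higher in PC3 and 1 in opposite directions. A fit to the PC3 arrays alone gave 2 higher and 0 lower. With 1 array left out, the counts ran from 1 to 6 higher and stood at 0 lower in PC3, from 2 to 7 higher and 5 to 12 lower in LNCaP, from 2 to 5 higher and 4 to 9 lower for the difference, and from 0 to 3 in opposite directions; the count of 0 came without PC3 GFP replicate 1 or any 1 of the 4 Notch1 arrays. Where this left 1 array in a group, it was assumed to vary like the others.

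Replicate numbers are shared between groups, but no source says what they mark. The deviations of same-numbered arrays correlated at 0.124 to 0.545 over the 6 pairs of groups, with 2 numbers in each. With the replicate number as a block, 5 members were called higher and 2 lower in PC3, 7 higher and 14 lower in LNCaP, 5 higher and 12 lower for the difference, and 2 in opposite directions. Changes of members with means below log2 5, such as RAB27B, CTSK and, in PC3, RAB36, are limited by their dim signal. The LNCaP values of RAB36 lay above log2 5.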

Other observations

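Of the 21 RAB regulators and effectors measured, RIN2, an exchange factor that activates RAB5, was the 1 called in opposite directions in the lines. It was named after its values were seen. Of all probe sets, 0.621% were called in both lines with opposite signs. The calls of RIN2 under the alternatives are not reported here. RIN2 stood in PC3 at 7.26 and 7.59 with GFP and 7.93 and 8.10 with Notch1. In LNCaP it stood at 5.15 and 5.40 with GFP, and at 4.71 and 4.77 with Notch1, both under log2 5. It rose by 0.58 ± 0.15 in PC3 (adjusted p = 0.0435) and changed by -0.53 ± 0.15 in LNCaP (adjusted p = 0.0297), and the difference between lines was -1.12 (adjusted p = 0.00581). RIN1, a related exchange factor, changed by -0.28 in PC3 and 0.16 in LNCaP (adjusted p = 0.181 and 0.424), and the RAB5 effector RABEP1 by -0.03 and -0.07 (adjusted p = 0.931 and 0.866). RABGGTB, the catalytic subunit of the enzyme that attaches lipid to RAB proteins, also chosen after its values were seen, fell in LNCaP (-0.63, adjusted p = 0.0103), changed by 0.41 in PC3 (adjusted p = 0.106) and differed between lines by -1.04 (adjusted p = 0.00625).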
